A study of Mus musculus with 6 samples.

Results

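The renin-angiotensin genes of the hypoxic mouse lung described here are Agt, Ace, Enpep, Agtr1a, Agtr2 and Mas1. They were chosen by gene symbol, with earlier results of these data known. Each was read by 1 probe set, so they are 6 of the 25428 probe sets on the arrays. Total RNA of 1 lung lobe per mouse was hybridised to GeneChip Mouse Gene 2.0 ST arrays. The lungs of 3 Nfat5(SMC)-/- mice were set against those of 3 Nfat5fl/fl mice, and all 6 mice had been kept at 10% oxygen for 7 days. In Nfat5(SMC)-/- mice the floxed Nfat5 gene had been deleted by SM-MHC-CreERT2, a tamoxifen-inducible Cre recombinase driven by the smooth muscle myosin heavy chain promoter. By the study's methods the mice were adult males, and tamoxifen was given to the Nfat5(SMC)-/- mice while the Nfat5fl/fl controls, whose Nfat5 stayed intact, received its carrier oil. Deletion and tamoxifen therefore cannot be told apart. The deletion is directed to smooth muscle cells (SMCs), and by this design the other cells of the lobe keep the gene. Which cells lost it was not measured on these arrays. NFAT5 is a transcription factor best known for the response to osmotic stress, and the comparison asks how its loss in SMCs changes gene expression in the hypoxic lung. Mice were numbered 1, 2 and 4 in each group.

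The renin-angiotensin system turns 1 plasma protein into peptides that set vascular tone. Renin cuts angiotensinogen (Agt), which is made mainly by the liver and also by fat, to angiotensin I, and angiotensin-converting enzyme (Ace), a surface enzyme that is abundant on the capillary endothelium of the lung, trims this to angiotensin II. Glutamyl aminopeptidase (Enpep) removes the first residue of angiotensin II and makes angiotensin III. Angiotensin II constricts vessels through the AT1 receptor, which rodents encode with both Agtr1a and Agtr1b. The AT2 receptor (Agtr2) and the receptor Mas (Mas1), which binds a shorter angiotensin peptide, are known to oppose it.

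Promoter sequence is shown for the genes that start the pathway and for those whose windows held a searched motif. Each window holds the 250 bases that precede an annotated transcription start in RefSeq on GRCm38.p6, and it was searched on both strands for TGGAAA, the core that NFAT5 sites share, for TATAAA and for ACGTG, the core of hypoxia response elements. Capitals mark a match. The Enpep window lies at chr3:129332750-129332999 on the minus strand, those of Ace at chr11:105967698-105967947 and, for a start inside the gene, at chr11:105974939-105975188 on the plus strand, that of Agt at chr8:124569707-124569956 on the minus strand and that of Agtr2 at chrX:21484374-21484623 on the plus strand.
Enpep: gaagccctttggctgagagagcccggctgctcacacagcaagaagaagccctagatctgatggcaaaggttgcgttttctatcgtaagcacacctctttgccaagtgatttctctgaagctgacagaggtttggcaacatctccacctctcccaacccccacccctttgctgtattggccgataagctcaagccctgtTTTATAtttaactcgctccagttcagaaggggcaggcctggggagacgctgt
Ace, upstream start: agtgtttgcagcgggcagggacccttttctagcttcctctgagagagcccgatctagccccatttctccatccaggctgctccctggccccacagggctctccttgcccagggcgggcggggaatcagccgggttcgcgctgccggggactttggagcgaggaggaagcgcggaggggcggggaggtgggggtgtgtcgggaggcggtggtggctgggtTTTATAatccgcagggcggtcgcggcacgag
Ace, internal start: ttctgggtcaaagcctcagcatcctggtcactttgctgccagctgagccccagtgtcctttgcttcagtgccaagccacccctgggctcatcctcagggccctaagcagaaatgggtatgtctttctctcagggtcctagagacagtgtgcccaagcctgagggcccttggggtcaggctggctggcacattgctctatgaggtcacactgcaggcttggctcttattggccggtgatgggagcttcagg
Agt: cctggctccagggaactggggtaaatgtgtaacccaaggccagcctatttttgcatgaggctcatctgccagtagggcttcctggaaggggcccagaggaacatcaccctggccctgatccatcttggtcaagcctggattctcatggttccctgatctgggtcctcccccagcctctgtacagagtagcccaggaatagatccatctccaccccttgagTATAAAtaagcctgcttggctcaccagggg
Agtr2: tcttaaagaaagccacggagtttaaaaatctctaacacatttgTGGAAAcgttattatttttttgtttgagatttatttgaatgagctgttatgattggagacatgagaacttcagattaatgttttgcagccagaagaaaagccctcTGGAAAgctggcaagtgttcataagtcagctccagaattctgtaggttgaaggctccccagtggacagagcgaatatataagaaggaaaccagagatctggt
TATAAA stood in the Agt window, 30 to 25 bases before the start. On the opposite strand, where the printed strand reads TTTATA, it stood 31 to 26 bases before the upstream Ace start and 52 to 47 bases before that of Enpep. TGGAAA stood in the Agtr2 window, at 207 to 202 and at 102 to 97 bases before the start, and none of the 3 motifs was found in the window of the internal Ace start or in that of Mas1 (chr17:12868144-12868393, minus strand). Of 32851 promoter windows of the same length, 18.6% held TGGAAA, 12.4% TATAAA and 16.6% ACGTG. A match is only a string of letters and not a measured site. The window of Agtr1a is not shown.

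Levels below are log2 values normalised to the same distribution on every array, so that a difference is relative to the other genes of the same lung, and differences are Nfat5(SMC)-/- minus Nfat5fl/fl. The targeted gene Nfat5 read 8.23, 7.72 and 7.89 in Nfat5(SMC)-/- lungs and 9.18, 8.62 and 9.21 in Nfat5fl/fl lungs. Of all probe sets, 208 (0.818%) were called, that is, had a limma p under 0.05 after Benjamini-Hochberg adjustment over the whole table. Nfat5 itself differed by -1.06 without overlap and was not called (limma adjusted p = 0.0707). In a principal component analysis the leading axis (49.6% of the variance) placed Nfat5(SMC)-/- mouse 1 at 55.8, far from the other 2 lungs of its group (3.12 to 3.57) and from the Nfat5fl/fl lungs (-21.6 to -20.1). Nfat5(SMC)-/- mouse 1 thus stood apart. The value without this lung is given where that changed the call or the direction or moved the difference by over 1.5 times. This covers the renin-angiotensin genes and the pathway genes with an unadjusted p under 0.05 or without overlap. Because the samples are whole lobes, fewer cells of a type and less RNA per cell cannot be told apart.

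Of the 6 renin-angiotensin genes 0 were called in either direction. Enpep and Agtr1a were the 2 whose groups did not overlap, both lower in Nfat5(SMC)-/- lungs and they were also the 2 with an unadjusted p under 0.05 by limma. By the methods' t-test 0 were called and 1 had an unadjusted p under 0.05. Agt, Ace, Agtr2 and Mas1 overlapped between the groups. Of all probe sets, 26.9% did not overlap between the groups (15.0% lower, 11.8% higher) and 19.3% had an unadjusted p under 0.05 (11.1% lower), against 2 of 6 here by either measure. 4 of the 6 differences were below 0, as were 50.3% of all, and the median difference was -0.14 for the 6 genes and -0.00081 for all probe sets.

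**Figure D1:**
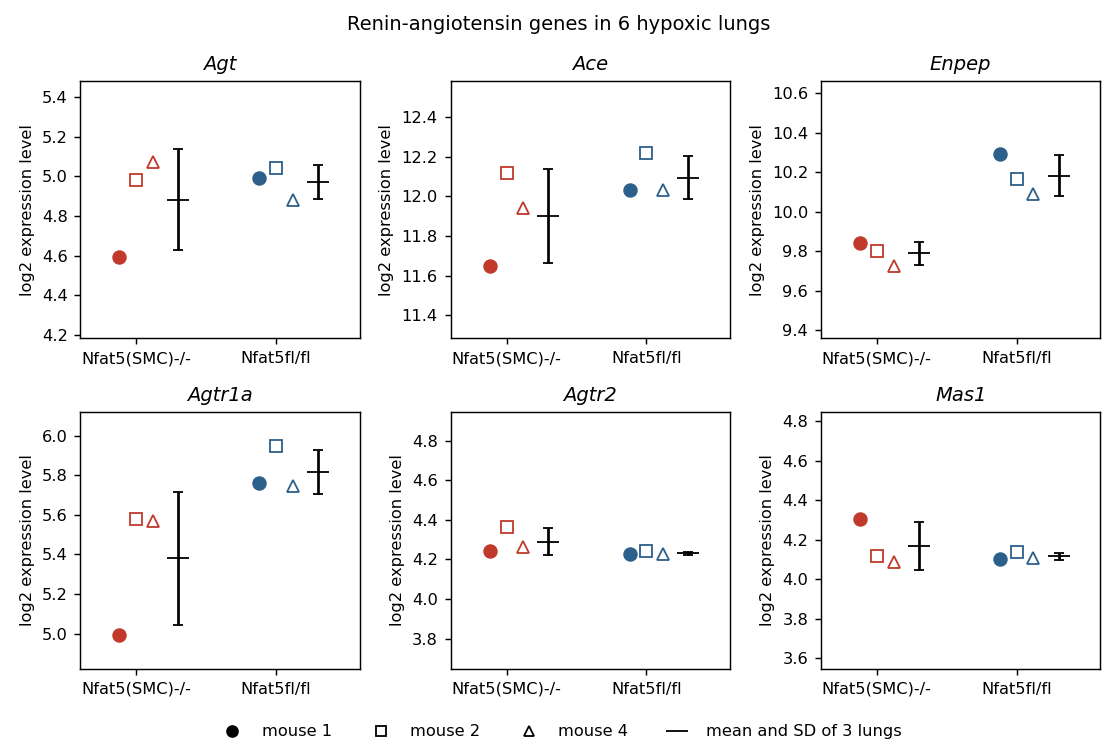
Log2 level (vertical axes) of each of the 6 renin-angiotensin genes in every lung, Nfat5(SMC)-/- left and Nfat5fl/fl right. Points are single lungs and bars are means with SD (n = 3). Enpep and Agtr1a do not overlap between the groups, and Nfat5(SMC)-/- mouse 1 is the lowest of the 6 lungs for Agt, Ace and Agtr1a.

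Agt (Entrez gene 11606), the substrate, read 4.59, 4.98 and 5.07 in Nfat5(SMC)-/- lungs and 4.99, 5.04 and 4.88 in Nfat5fl/fl lungs. The 6 values overlapped, with Nfat5(SMC)-/- mouse 1 lowest and Nfat5(SMC)-/- mouse 4 highest. The difference was -0.09 (SE 0.14, 95% interval -0.42 to 0.24, limma adjusted p = 0.776). Its direction rested on mouse 1, for without that lung it was 0.06. The level lay near 4.96, the median of all values on the arrays, which limits how small a change could be seen. Markers of fat and liver, where Agt is mainly made, were read beside it. The 9 adipocyte markers were all higher in Nfat5(SMC)-/- lungs (median difference 2.49, 3 of them called), with list means of 7.62 to 8.59 in Nfat5(SMC)-/- lungs and 5.68 to 6.33 in Nfat5fl/fl lungs. Of 7 hepatocyte markers 4 were higher and 3 lower, with list means of 4.81 to 5.01 in Nfat5(SMC)-/- lungs and 4.49 to 4.70 in Nfat5fl/fl lungs. The hepatocyte products Alb and Ttr differed by -0.10 each, and Cyp2e1, which other cells including adipocytes also express, by 2.35. Alb and Ttr lay around the lower quartile of all values, 4.30, where a transcript may not be told from background. The part of either cell type in the Agt level was not tested.

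Ace (Entrez gene 11421) read 11.65, 12.12 and 11.94 in Nfat5(SMC)-/- lungs and 12.03, 12.22 and 12.03 in Nfat5fl/fl lungs. The groups overlapped because Nfat5(SMC)-/- mouse 2 exceeded 2 of the Nfat5fl/fl lungs. Ace averaged 11.90 ± 0.24 in Nfat5(SMC)-/- lungs and 12.09 ± 0.11 in Nfat5fl/fl lungs (SD, n = 3 each), a difference of -0.19 (SE 0.13, 95% interval -0.52 to 0.13, limma adjusted p = 0.490). Without Nfat5(SMC)-/- mouse 1 it shrank to -0.06, and without Nfat5fl/fl mouse 2 as well to -0.0023. Ace has the upstream start and the start inside the gene shown above, the internal one serving the testis form, and the sources used here do not say which transcripts the probe set reads.

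Enpep (Entrez gene 13809) read 9.84, 9.80 and 9.73 in Nfat5(SMC)-/- lungs and 10.29, 10.16 and 10.09 in Nfat5fl/fl lungs. All 3 Nfat5(SMC)-/- lungs lay below all 3 Nfat5fl/fl lungs, with a gap of 0.25 between the nearest. The means were 9.79 ± 0.06 in Nfat5(SMC)-/- lungs and 10.18 ± 0.10 in Nfat5fl/fl lungs (SD, n = 3 each), 23.8% lower, for a difference of -0.39 (SE 0.08, 95% interval -0.58 to -0.20, limma adjusted p = 0.0741). The spread within each group was small against the difference, and mouse 1 was the highest Nfat5(SMC)-/- lung rather than the lowest. Without mouse 1 the difference was -0.42 (adjusted p = 0.0576), and it was called only when arrays were weighted by their quality (-0.36, adjusted p = 0.0232). Over all 16 alternatives the adjusted p ran between 0.0232 and 0.432. Genes with a long genomic span, Enpep at 63.6 kb among them, tended to be lower in Nfat5(SMC)-/- lungs. The brighter genes had a median difference of 0.27 in the shortest of 10 bins by span and -0.25 in the longest, and the bin that holds Enpep had -0.13. After a correction of each array for span the Enpep difference was -0.30 (adjusted p = 0.153).

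Enpep is expressed on pericytes and other mural cells, so their markers were read beside it. Of 10 pericyte markers 5 were higher and 5 lower (median difference 0.01), with list means of 7.15 to 7.28 in Nfat5(SMC)-/- lungs and 7.18 to 7.32 in Nfat5fl/fl lungs. Higd1b and Pdgfrb, which mark lung pericytes, differed by -0.31 and -0.24, and Cspg4 by 0.02. Abcc9 differed by -0.35, Cox4i2 by 0.40 and Lamc3 by 0.19. Higd1b, which was lower, and Lamc3, which was higher, did not overlap between the groups. Of 9 SMC markers 3 were higher and 6 lower (median -0.07), with list means of 7.77 to 7.88 in Nfat5(SMC)-/- lungs and 7.66 to 8.01 in Nfat5fl/fl lungs. The list means of both cell types overlapped between the groups. The part of these cells in the Enpep level was not tested.

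Agtr1a (Entrez gene 11607), the main AT1 receptor gene of the mouse, read 4.99, 5.58 and 5.57 in Nfat5(SMC)-/- lungs and 5.76, 5.95 and 5.74 in Nfat5fl/fl lungs. The groups did not overlap, the gap being 0.17, but Nfat5(SMC)-/- mouse 1 lay far below the other 2 lungs of its group. The means were 5.38 ± 0.34 in Nfat5(SMC)-/- lungs and 5.82 ± 0.11 in Nfat5fl/fl lungs (SD, n = 3 each), 26.1% lower, for a difference of -0.44 (SE 0.17, 95% interval -0.86 to -0.02, limma adjusted p = 0.243). Without mouse 1 the difference was -0.24 (adjusted p = 0.171), and without Nfat5fl/fl mouse 2 as well it was -0.18. Agtr1a falls in the same span bin as Enpep. After the span correction its difference was -0.37 (limma unadjusted p = 0.0526, adjusted p = 0.272). The second AT1 receptor gene, Agtr1b, read 4.44, 4.56 and 4.46 in Nfat5(SMC)-/- lungs and 4.59, 4.76 and 4.70 in Nfat5fl/fl lungs. The difference was -0.19 without overlap (limma adjusted p = 0.236), and -0.12 after the span correction (adjusted p = 0.429). The 2 genes are near-identical copies in their coding sequence, and whether their probes tell them apart was not tested.

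Agtr2 (Entrez gene 11609) read 4.24, 4.37 and 4.26 in Nfat5(SMC)-/- lungs and 4.22, 4.24 and 4.23 in Nfat5fl/fl lungs. Only Nfat5(SMC)-/- mouse 2 stood above the rest, and the difference was 0.06 (SE 0.06, 95% interval -0.10 to 0.21, limma adjusted p = 0.679). Mas1 (Entrez gene 17171) read 4.31, 4.12 and 4.08 in Nfat5(SMC)-/- lungs and 4.10, 4.14 and 4.11 in Nfat5fl/fl lungs. Here Nfat5(SMC)-/- mouse 1 was the single high lung, the difference was 0.05 (SE 0.08, 95% interval -0.14 to 0.25, limma adjusted p = 0.770), and without that lung it was -0.02. Both receptors lay around the lower quartile of all values, 4.30, where a transcript may not be told from background, so these intervals bound the change in probe signal rather than in transcript.

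**Figure D2:**
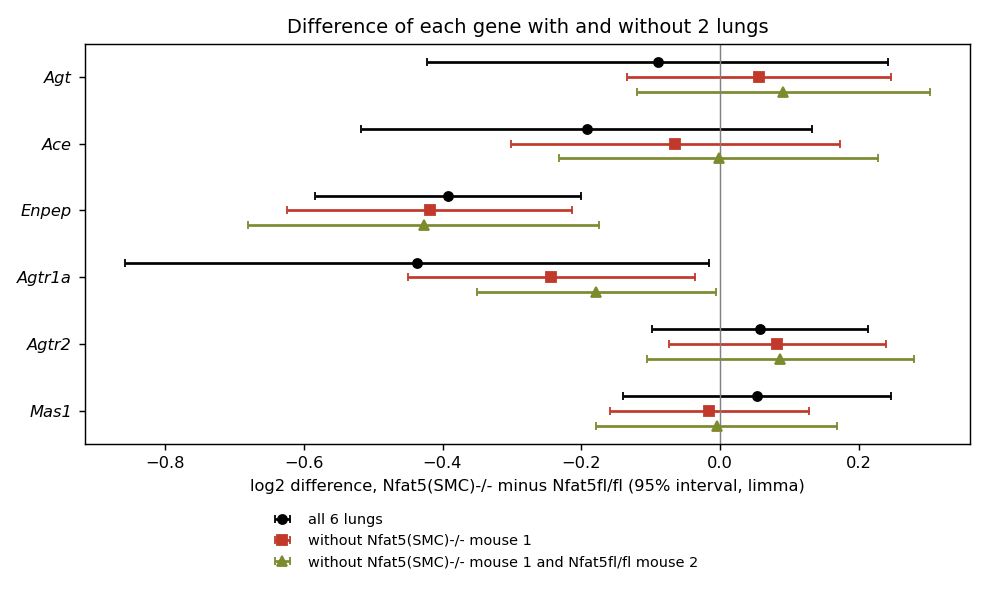
Difference in log2 level, Nfat5(SMC)-/- minus Nfat5fl/fl (horizontal axis), for the 6 renin-angiotensin genes, with 95% intervals from limma for all 6 lungs (circles), without Nfat5(SMC)-/- mouse 1 (squares) and without that lung and Nfat5fl/fl mouse 2 (triangles). Enpep lies between -0.43 and -0.39 in all 3, whereas Ace, Agt, Agtr1a and Mas1 move toward or across 0 without that lung.

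The other genes of the pathway were described from 4 lists, of which 32 of 33 genes were measured. 18 were higher and 14 lower in Nfat5(SMC)-/- lungs (median 0.04), 1 was called higher and 0 lower, against 0.260% and 0.558% of all probe sets. Before adjustment 6 were higher and 5 lower with a limma p under 0.05, where 8.19% of all probe sets were higher and 11.1% lower. The called gene was Rnpep, aminopeptidase B, which removes basic residues from peptides. It read 8.87, 8.87 and 8.91 in Nfat5(SMC)-/- lungs and 8.44, 8.48 and 8.46 in Nfat5fl/fl lungs. Every Nfat5(SMC)-/- lung lay at least 0.38 above every Nfat5fl/fl lung, and Rnpep rose by 0.42 (SE 0.06, limma adjusted p = 0.0462), 1.34-fold. The call was lost under 13 of the 16 alternatives, with adjusted p between 0.00735 and 0.369 over all of them.

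Renin itself (Ren1) read 4.33, 4.36 and 4.26 in Nfat5(SMC)-/- lungs and 4.19, 4.26 and 4.28 in Nfat5fl/fl lungs, at the low end of the arrays and with overlap (difference 0.07, limma adjusted p = 0.586). Of the 15 other angiotensin processing enzymes measured, Ren1 included, 10 were higher and 5 lower (median 0.12). Before adjustment 5 of the higher and 1 of the lower ones had a limma p under 0.05. Ctsd, a lysosomal protease that can also cut angiotensinogen, read 11.62, 11.67 and 11.54 in Nfat5(SMC)-/- lungs and 11.40, 11.32 and 11.26 in Nfat5fl/fl lungs. These did not overlap, and the difference was 0.28 (limma adjusted p = 0.110). Ctsd falls in a span bin with a median of 0.08, and after the span correction it differed by 0.26 (limma adjusted p = 0.153). Dpp3, which degrades angiotensin II, differed by 0.28 with overlap (limma adjusted p = 0.246). Nfat5(SMC)-/- mouse 1 was its lowest Nfat5(SMC)-/- lung, and without it the difference was 0.39 and called (limma adjusted p = 0.0437). In the fit without that lung 980 of all probe sets were called.

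Mme, neprilysin, a peptidase known to make vasodilator angiotensin peptides, read 10.20, 10.30 and 9.89 in Nfat5(SMC)-/- lungs and 10.71, 10.53 and 10.64 in Nfat5fl/fl lungs. It lay lower without overlap, with a difference of -0.49 (SE 0.12, limma adjusted p = 0.106). Mme falls in a span bin with a median of -0.20, and after the span correction it differed by -0.38 (limma adjusted p = 0.205).

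The list holds 4 proteases that mast cells can carry, and mast cell markers were read beside them. Mcpt4, a chymase that can form angiotensin II without Ace, read 4.08, 4.41 and 4.51 in Nfat5(SMC)-/- lungs and 3.93, 4.04 and 3.82 in Nfat5fl/fl lungs (difference 0.41, limma adjusted p = 0.166). Cpa3, the mast cell carboxypeptidase, read 6.21, 5.64 and 6.13 in Nfat5(SMC)-/- lungs and 5.51, 5.02 and 5.05 in Nfat5fl/fl lungs (difference 0.80, limma adjusted p = 0.110). All Nfat5(SMC)-/- lungs exceeded all Nfat5fl/fl lungs for both genes. Without Nfat5(SMC)-/- mouse 1 the Mcpt4 difference was 0.53 and called (limma adjusted p = 0.0438), in a fit that called 980 of all probe sets. Mcpt4 lay below the lower quartile of all values, 4.30, in all Nfat5fl/fl lungs and in Nfat5(SMC)-/- mouse 1. At such levels a transcript may not be told from background. The chymase gene Cma1 and Ctsg, the cathepsin G gene, overlapped between the groups, with differences of 0.12 and 0.07 (limma adjusted p = 0.725 and 0.753). Of the 6 mast cell markers 4 were higher and 2 lower (median 0.05), with list means of 6.64 to 6.69 in Nfat5(SMC)-/- lungs and 6.44 to 6.56 in Nfat5fl/fl lungs. The tryptase Tpsb2 was called (0.63, limma adjusted p = 0.0487). Gata2 differed by 0.60 without overlap (limma adjusted p = 0.0951). With overlap, Hdc differed by -0.35 and Ms4a2 by 0.02. The receptor Kit averaged 9.78 in both groups and differed by -0.0033. The high-affinity IgE receptor chain Fcer1a lay between 3.95 and 4.11 in Nfat5(SMC)-/- lungs and between 3.90 and 3.95 in Nfat5fl/fl lungs, at the floor of the arrays. The part of mast cells in the protease levels was not tested.

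Of 6 other receptors and receptor partners 2 were higher and 4 lower (median -0.17). Lnpep, the insulin-regulated aminopeptidase that binds angiotensin IV, read 9.07, 8.87 and 9.08 in Nfat5(SMC)-/- lungs and 9.67, 9.39 and 9.58 in Nfat5fl/fl lungs. It was 31.3% lower without overlap, for a difference of -0.54 (SE 0.10, limma adjusted p = 0.0707). Lnpep falls in a span bin with a median of -0.20, and after the span correction it differed by -0.43 (limma adjusted p = 0.129). Agtrap, a protein that binds the AT1 receptor and promotes its internalisation, read 7.66, 7.49 and 7.15 in Nfat5(SMC)-/- lungs and 6.76, 7.08 and 6.72 in Nfat5fl/fl lungs, a difference of 0.58 without overlap (limma adjusted p = 0.129). The AT1 receptor genes and this partner thus lay on opposite sides, without passing the adjusted test. Mtus1, whose product binds the AT2 receptor, differed by -0.24 and Mrgprd, a further receptor of angiotensin peptides, by -0.15, both without overlap (limma adjusted p = 0.170 and 0.331). Mtus1 falls in the longest of the 10 span bins, whose median was -0.25, and after the span correction it differed by -0.11 (limma adjusted p = 0.522). Mrgprd differed by -0.099 without Nfat5(SMC)-/- mouse 1. It read 3.95, 4.11 and 4.09 in Nfat5(SMC)-/- lungs and 4.21, 4.24 and 4.15 in Nfat5fl/fl lungs. Every lung thus lay below the lower quartile of all values, 4.30, where a transcript may not be told from background.

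In the kinin arm, whose peptide bradykinin is degraded by Ace, 4 of 6 genes were higher and 2 lower (median 0.09), and 0 had an unadjusted p under 0.05 by limma. The bradykinin receptor gene Bdkrb2 differed by 0.33 and the kallikrein gene Klk1 by 0.21, both without overlap (limma adjusted p = 0.372 and 0.263). Klk1 read 4.43, 4.35 and 4.58 in Nfat5(SMC)-/- lungs and 4.29, 4.30 and 4.16 in Nfat5fl/fl lungs. These values lay around the lower quartile of all values, 4.30, where a transcript may not be told from background. Klk1 falls in a span bin with a median of 0.15. After the span correction Klk1 differed by 0.16 and Bdkrb2 by 0.36 (limma adjusted p = 0.396 and 0.356). Bdkrb2 read 5.52, 4.86 and 4.98 in Nfat5(SMC)-/- lungs and 4.76, 4.77 and 4.85 in Nfat5fl/fl lungs, so that Nfat5(SMC)-/- mouse 1 was the high lung, and without it the difference was 0.13. In the aldosterone arm 2 of 5 genes were higher and 3 lower (median -0.03). Nr3c2, the mineralocorticoid receptor, read 5.15, 5.25 and 5.31 in Nfat5(SMC)-/- lungs and 5.43, 5.59 and 5.53 in Nfat5fl/fl lungs, a difference of -0.28 without overlap (limma adjusted p = 0.132). It too falls in the longest span bin, and after the span correction the difference was -0.14 (limma adjusted p = 0.320).

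**Figure D3:**
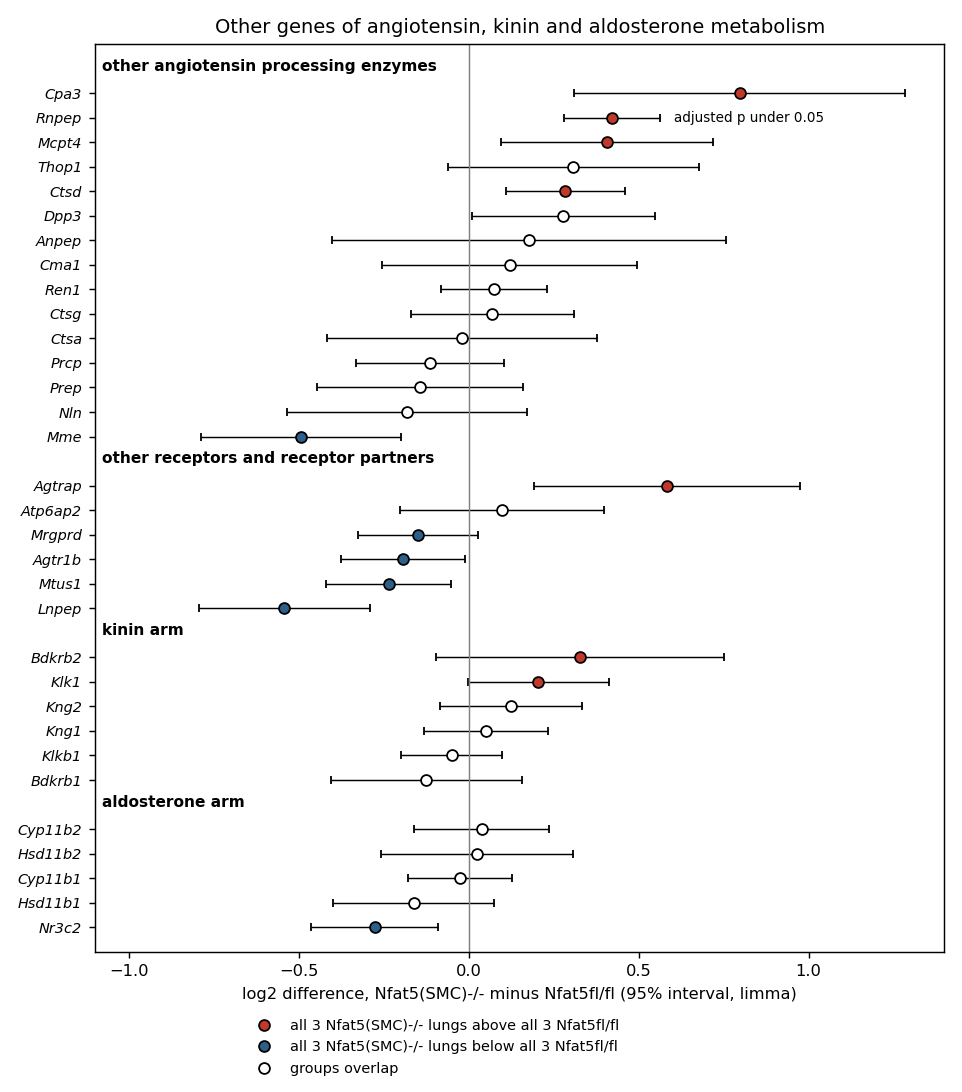
Difference in log2 level, Nfat5(SMC)-/- minus Nfat5fl/fl (horizontal axis), with 95% intervals from limma, for the 32 measured genes of the 4 pathway lists. Filled points are genes whose groups do not overlap. The values run from -0.54 (Lnpep) to 0.80 (Cpa3), and Rnpep at 0.42 is the gene that passed the adjusted test.

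Endothelial markers were read beside Ace, which capillary endothelium carries. Of 11 markers 4 were higher and 7 lower (median -0.05), with list means of 10.1 to 10.3 in Nfat5(SMC)-/- lungs and 10.2 to 10.5 in Nfat5fl/fl lungs. The vascular endothelial cadherin gene Cdh5, Kdr and Pecam1 differed by -0.31, -0.27 and -0.22, and Tek, the angiopoietin receptor, by -0.43 (limma adjusted p = 0.0548). These 4 were lower without overlap, as were 15.0% of all probe sets, and 0 were called. The 4 higher ones were Cldn5, Tie1, Robo4 and Esam, at 0.17, 0.14, 0.11 and 0.11, all with overlap. Of 5 markers of aerocytes, a capillary cell of the alveolus, 4 were higher and 1 lower (median 0.03). The part of these cells in the Ace level was not tested.

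**Figure D4:**
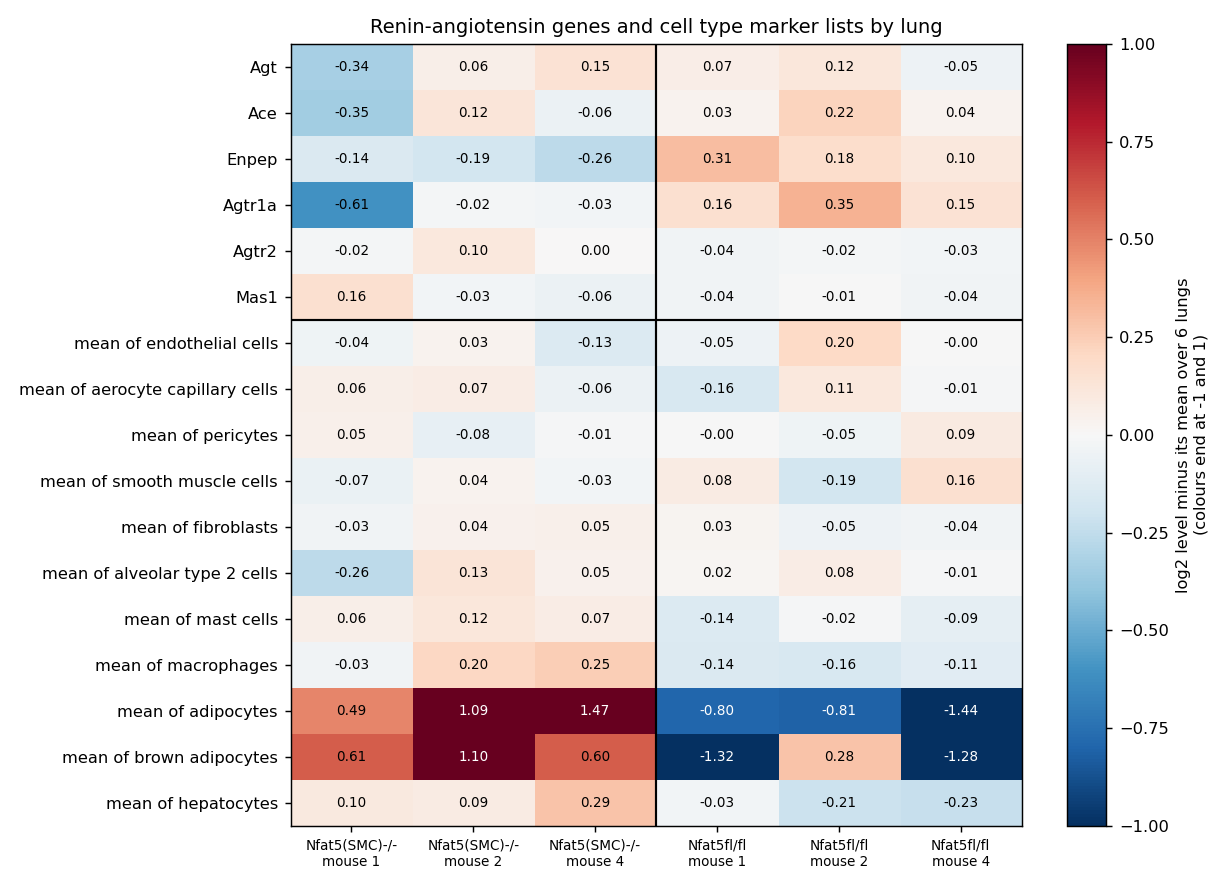
Log2 level minus its mean over the 6 lungs for the 6 renin-angiotensin genes (upper rows) and for the means of cell type marker lists (lower rows), lungs in columns with Nfat5(SMC)-/- left. Colours end at -1 and 1. Agtr1a is at -0.61 in Nfat5(SMC)-/- mouse 1, where Enpep is at -0.14, and both adipocyte lists have their highest values in Nfat5(SMC)-/- lungs.

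The genes with the most similar profiles were found for the 4 renin-angiotensin genes whose SD over the lungs exceeded the median SD and whose mean level exceeded the median of all probe sets in one or both groups. Likeness was the root mean square distance between log2 profiles centred over the 6 lungs, so it reflects the group difference as well as the order within groups. For Enpep the nearest were Fbxo3, Piezo2 and Tek at 0.035, 0.038 and 0.040. Those of Agtr1a were Afap1l2, Polg2 and Hp1bp3 at 0.016, 0.018 and 0.029. Ace lay nearest to Fuca2, Mthfsd and Zfp1 at 0.024, 0.031 and 0.032, and Agt to Glg1, Mipep and Rnf149 at 0.025, 0.028 and 0.031.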

How the data were processed

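Per the labels, total RNA of 6 lung lobes, 1 per mouse, was measured on 1 array each, so replicates are separate mice. The values as deposited are on a log2 scale, summarised by the authors with RMA (so listed, without a version, in the submitters' processing notes), quantile normalisation and a custom chip definition of version 22 that gives 1 probe set per Entrez gene. Such values hide any change common to all genes. Of 25428 probe sets 25269 had 1 symbol, from the platform table or RefSeq's gene table of GRCm38.p6, which also gave genomic spans. No build is given for the arrays.

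A linear model with genotype as its single term was fitted to the 6 lungs for every probe set by lmFit, and moderated two-sided p-values came from eBayes (limma 3.58.1, R 4.3.3). They were adjusted by Benjamini-Hochberg over the whole table, with a threshold of 0.05. The fit was tested on simulated data. With 3 lungs a group, exact permutation of 1 gene gives p = 0.1 at the least and was not used. The number of arrays limits the precision. The renin-angiotensin genes and all lists were chosen with earlier results of these data known. 1 gene of the enzyme list is not reported here and is left out of its counts. Genes named are these 6, Nfat5, the listed pathway genes with an unadjusted p under 0.05 or groups that did not overlap, Ren1, the nearest 3 profiles per gene, and markers of the lists. Cma1, Ctsg, Kit, Fcer1a, Tpsb2, Gata2, Hdc and Ms4a2 were picked from their lists after their values were seen. The same holds for Cspg4, Higd1b, Pdgfrb, Abcc9, Cox4i2, Lamc3, Alb, Ttr, Cyp2e1 and the endothelial markers named. 16 alternatives were run: the methods' t-test, limma with a mean-dependent or robust prior, array weights, cyclic loess, a filter on low values, a replicate block, a correction for gene span, the adipocyte mean as covariate, each lung left out, and Nfat5(SMC)-/- mouse 1 and Nfat5fl/fl mouse 2 left out together. That pair was taken from earlier results of these data, and on the leading principal axis Nfat5fl/fl mouse 2 lay with its group.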

Additional observations from a re-analysis of the deposited data

How the results depend on the processing

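Over the alternatives, 295 values kept their direction and their side of the threshold, 8 reversed, 14 gained and 13 lost significance, and 31 counts moved. Of the 6 renin-angiotensin genes, 0 were called with any 1 lung left out, and 1, Enpep, with array weights. The difference of Agt reversed to 0.066 with array weights, to 0.091 when Nfat5(SMC)-/- mouse 1 and Nfat5fl/fl mouse 2 were both dropped, and to 0.056 without Nfat5(SMC)-/- mouse 1 alone. With each lung left out in turn it ran between -0.18 and 0.056. That of Mas1 reversed to -0.0051 without both lungs and ran between -0.015 (without Nfat5(SMC)-/- mouse 1) and 0.095 with 1 left out. With the adipocyte mean as covariate Mcpt4, Dpp3 and Klk1 reversed to -0.36, -0.088 and -0.12, while Ace, Agt and Agtr1a moved to -0.74, -0.91 and -1.37. The adipocyte means do not overlap between the groups, so that covariate also carries genotype. The causes were not tested.

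Of all probe sets 208 were called, against 3263 with array weights, 1452 without both lungs, 60 after span correction, 2 with a mean-dependent prior and 1 with cyclic loess. The methods' t-test, the replicate block and the adipocyte covariate called 0, with 3951, 4994 and 4321 at an unadjusted p under 0.05 (4906 by limma as reported). With 1 lung left out the count ran between 0 and 980, the highest being without Nfat5(SMC)-/- mouse 1, and where it was 0 between 3177 and 5280 had an unadjusted p under 0.05. Of the 32 pathway genes 1 was called, against 10 with array weights, 3 without both lungs, 0 to 3 with 1 lung left out and 0 under the t-test, either other prior, cyclic loess, the filter, the block, the span correction and the adipocyte covariate. The filter on low values removed Agtr2 and Mas1.

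The mouse numbers were not taken as pairs, since the labels do not say what a number marks. The deviations of same-numbered lungs correlated at 0.133, 0.411 and 0.0775, and those of differently numbered lungs at -0.329 to 0.145. With so few lungs these values do not settle whether the numbers mark pairs. With the number as a replicate block Enpep had an adjusted p of 0.110 and Agtr1a of 0.201.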
